A study of Mus musculus with 7 samples.

Results

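Complement is a cascade of blood and tissue proteins that marks surfaces for removal, and 6 mouse genes that restrain it, read it out or drive it were followed here in the retinal pigment epithelium, or RPE, a pigmented sheet of cells that supports the photoreceptors. The genes were Cr1l, Cd55, Cd46, Cr2, C4bp and Cfd. They were chosen by name, as every probe set whose platform annotation gives 1 gene symbol and that symbol is one of the 6. All 6 genes were measured, by 78 of the 65535 probe sets in the table, among 5017 genes in all. Each probe set reads part of a gene. Cr1l had 9 probe sets, Cd55 had 11, Cd46 had 11, Cr2 had 30, C4bp had 12 and Cfd had 5. Cfd lies on mouse chromosome 10 and the other 5 genes on chromosome 1.

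Complement proteins cut one another in sequence on a surface, and host cells carry regulators that take the central convertase enzymes apart or help a protease to inactivate their subunits. Most of these regulators are built from repeated short consensus (sushi) domains, and many of their genes lie in clusters. RPE cells make regulators of their own, and complement proteins are found in the deposits under the RPE in human macular degeneration. Cfd differs from the other members in kind, since it encodes factor D, the serine protease that activates the alternative pathway, and is no inhibitor.

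The 3 Dicer1-deficient arrays held RNA from RPE with loxP-flanked Dicer1 on both alleles and a Cre transgene, written Dicer1loxP/loxP;Dct-Cre in the labels. The 4 control arrays are labelled only as control RPE, with no genotype given. Both groups came at postnatal day 5 from matings of Dicer1 flox/+ mice carrying Dct cre with mice homozygous for the floxed allele. Dicer1 encodes the enzyme that makes mature microRNAs, and the Dct promoter is active in pigment cells, which include melanocytes as well as RPE. The tissue was dissected RPE, so RNA of neighbouring cells can be part of the signal, and fewer cells of a type and less RNA per cell cannot be told apart. Nothing in the labels ties the arrays to separate animals, and each p-value is therefore set against a spread between arrays that may be technical.

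Values are log2 signals, on which 1 unit is a doubling, with a median of 6.22 and a lower quartile of 4.63 over all probe sets. Control 4 stood apart. It correlated with the other arrays at 0.942 to 0.951 across all probe sets, against 0.986 to 0.988 among controls 1 to 3, and its median was 6.05 where the other 6 arrays had 6.22 to 6.26. Results are therefore given with and without it. Of 20 RPE markers 7 were measured, and their summed linear signal was 16523 to 17889 in Dicer1-deficient arrays and 20205 to 22568 in control arrays, with Kcnj13, an RPE potassium channel gene, past the test and lower. The brightest probe set of Dicer1 itself averaged 10.57 ± 0.13 (SD, n = 3) in Dicer1-deficient and 10.62 ± 0.26 (SD, n = 4) in control arrays. Of its 28 probe sets 14 were positive and 14 negative and 0 passed. The groups did not overlap at 1 probe set higher and 1 lower in Dicer1-deficient arrays, against 13.3% of all probe sets. The higher one was 10402464 (log2 difference 0.25, limma adjusted p over all probe sets = 0.429). It averaged 8.49 ± 0.03 in Dicer1-deficient and 8.24 ± 0.05 in control arrays. Probe set 10402447 averaged 5.52 ± 0.23 in Dicer1-deficient and 6.31 ± 0.15 in control arrays without overlap (log2 difference -0.78, limma adjusted p over all probe sets = 0.0828), and 10402463 had -0.92 with all arrays (adjusted p = 0.729) and -1.59 without control 4 (adjusted p = 0.0773). Whether a Dicer1 probe set lies in the floxed part is not given in the sources used here.

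None of the 6 genes passed the test between Dicer1-deficient and control RPE at its brightest probe set. In limma, adjusted by Benjamini-Hochberg across the 5017 genes with a threshold of 0.05, 0 of 6 passed, where 2.33% of all genes did (1.42% higher and 0.917% lower in Dicer1-deficient arrays), and 0 of 6 had an unadjusted p under 0.05, where 14.5% of all genes did. The arrays of both groups were free of overlap for 1 of the 6 genes, Cr1l, which was higher, against 16.3% of all genes (9.27% higher and 7.02% lower). The 6 log2 fold changes (Dicer1-deficient minus control) ran from -0.05 to 0.22 with a median of 0.05, and the median of all genes was -0.01. Without control 4 the median of the 6 was 0.14, that of all genes was 0.03, and again 0 of 6 passed, where 5.18% of all genes did.

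**Figure D1:**
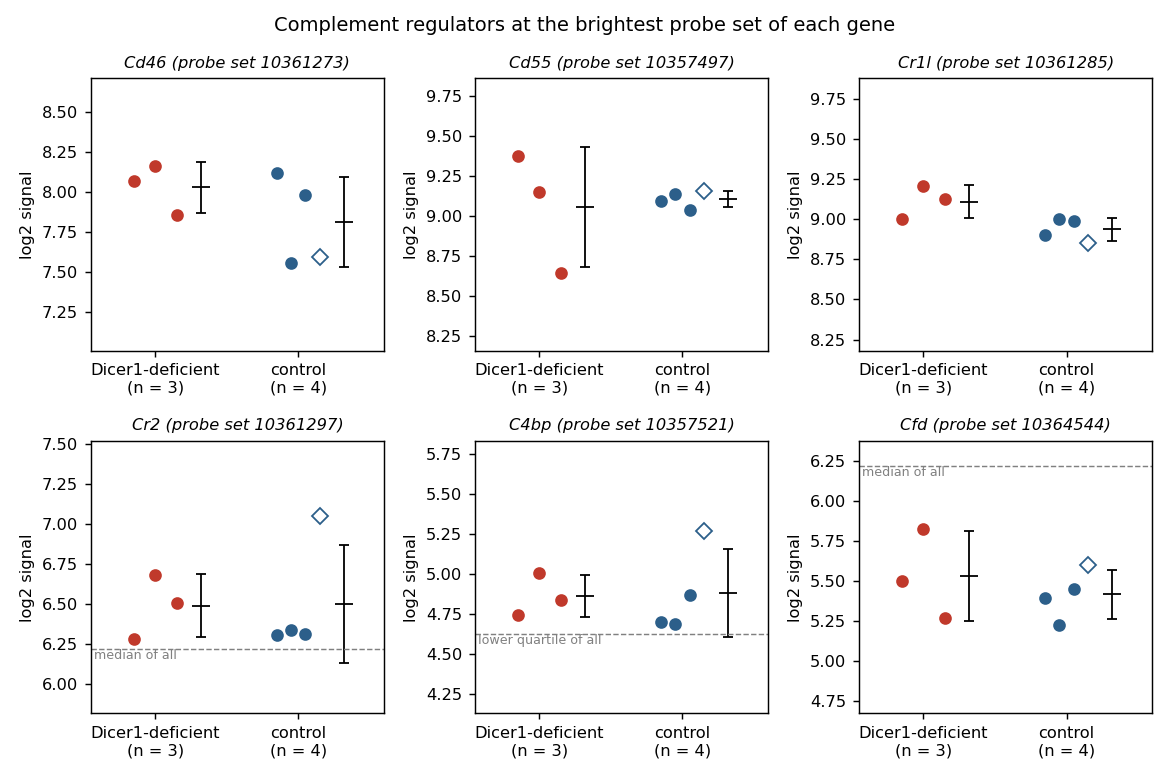
Log2 signal (vertical axes, each spanning the same range of log2 units) of the brightest probe set of each complement regulator gene on 3 Dicer1-deficient arrays (red, left) and 4 control arrays (blue, right), with control 4 as an open diamond and group means with SDs as black bars. Dashed lines mark the median or lower quartile of all probe sets where they fall in range. The groups overlap in every gene but Cr1l, and control 4 is the highest array for Cr2 (7.05) and C4bp (5.27).

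Probe set by probe set, the 78 values lay on both sides of 0. Of the 78, 35 were positive and 43 negative, with a median log2 fold change of -0.02. Limma adjusted over all 65535 probe sets called 0 of 78, where it called 0.856% of all probe sets (0.533% higher and 0.323% lower), and 4 had an unadjusted p under 0.05, where 11.3% of all probe sets did. The groups did not overlap at 4 of the 78, with 3 higher and 1 lower in Dicer1-deficient arrays, against 13.3% of all probe sets (7.25% higher and 6.1% lower). Without control 4, 54 of the 78 were positive, and 0 passed, where 1.86% of all probe sets did. Where the sign of so many values turned with 1 control array, no direction can be given for the genes as a group.

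**Figure D2:**
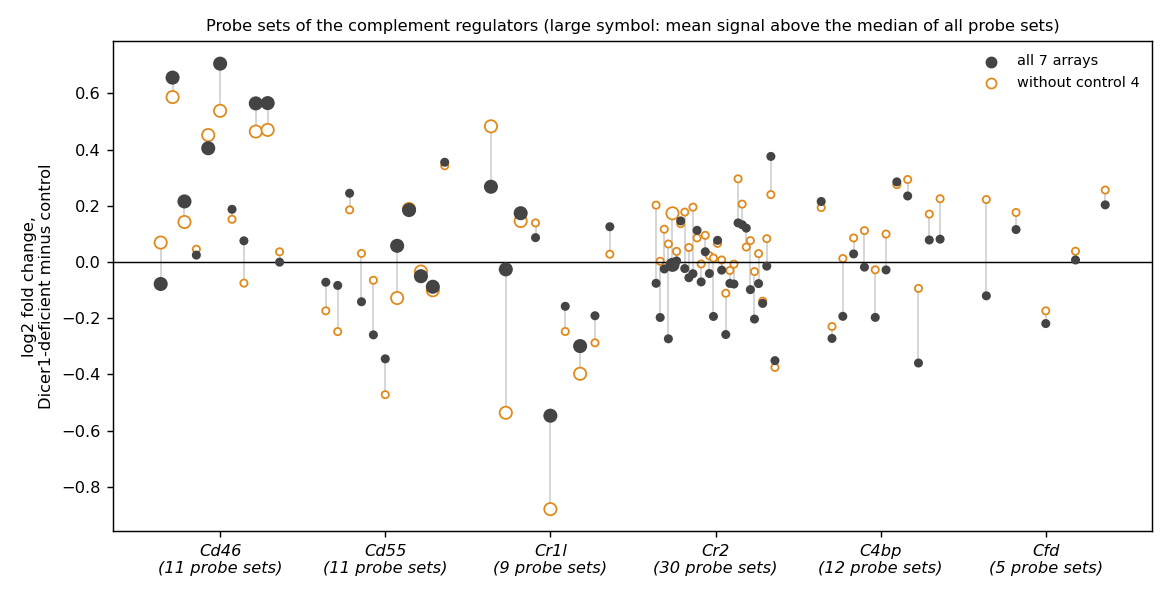
Log2 fold change (vertical axis, Dicer1-deficient minus control) of all 78 probe sets, ordered by number within each gene, with all 7 arrays (dark, filled) and without control 4 (orange, open). Grey lines join both values of a probe set, and large symbols mark probe sets whose mean signal is above 6.22, the median of all probe sets. The large symbols of Cd46 lie mostly above 0 and those of Cr1l on both sides of it, and most values of Cr2 sit higher without control 4.

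Cr1l, known as Crry, is the broadly expressed membrane regulator of rodents, which speeds the decay of convertases and serves as a cofactor for their inactivation. Its brightest probe set, 10361285, read 9.003, 9.21 and 9.13 in Dicer1-deficient arrays and 8.90, 9.0005, 8.99 and 8.85 in controls. The groups were only just free of overlap, since Dicer1-deficient array 1 and control 2 lay nearly level. The log2 fold change was 0.17 (SE 0.10, 95% interval -0.05 to 0.40; limma adjusted p = 0.501), and it was 0.15 without control 4 (adjusted p = 0.362). An increase of over 0.40 on the log2 scale at this probe set lies outside the interval.

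Other parts of Cr1l did not follow that probe set. Probe set 10361287 read 8.01, 7.36 and 7.80 in Dicer1-deficient arrays, against 8.72, 8.49, 8.60 and 7.27 in controls. All Dicer1-deficient arrays thus lay below controls 1 to 3 but above control 4. Its log2 fold change was -0.55 with all arrays (limma adjusted p over all probe sets = 0.661) and -0.88 without control 4 (95% interval -1.31 to -0.45; adjusted p = 0.0717). Probe set 10361283 did the opposite. It read 8.35, 8.32 and 8.23 in Dicer1-deficient arrays and 7.79, 7.91, 7.76 and 8.68 in controls, with a log2 fold change of 0.27 with all arrays (adjusted p = 0.767) and 0.48 without control 4 (95% interval 0.24 to 0.73; adjusted p = 0.0767). Neither passed the threshold in either fit.

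Further bright parts of Cr1l varied within groups. Probe set 10361284 read 9.02, 7.33 and 9.13 in Dicer1-deficient arrays and 9.25, 8.68, 9.16 and 6.99 in controls, so that Dicer1-deficient array 2 and control 4 lay well below all other arrays. Probe set 10361289 read 8.99, 8.19 and 8.76 in Dicer1-deficient arrays and 9.13, 8.98, 9.03 and 8.65 in controls, with a log2 difference of -0.30 (adjusted p = 0.697). At both, Dicer1-deficient array 2 was the lowest of its group and control 4 the lowest of the controls. The other 4 probe sets had mean signals of 3.37 to 6.16 and log2 fold changes of -0.19 to 0.13. On the mean of all 9 probe sets the log2 fold change of Cr1l was -0.06 (limma adjusted p = 0.935), with the sign opposite to that of the brightest probe set.

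Whether parts of a gene differed in fold change was tested with limma's diffSplice F test over the 4470 genes with more than 1 probe set. Of the 6 genes 0 passed after adjustment, where 1.34% of all such genes did, and 0 had an unadjusted p under 0.05, where 6.35% did. By its Simes test 0 of 6 passed, where 1.57% did. For Cr1l the unadjusted p was 0.815 with all arrays (adjusted p = 1) and 0.0582 without control 4 (adjusted p = 0.284). Without that array 6.29% of genes passed, and 0 of the 6 did. For Cd46 the unadjusted p was 0.183 with all arrays and 0.490 without control 4. An unequal response along Cr1l was therefore not shown.

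**Figure D3:**
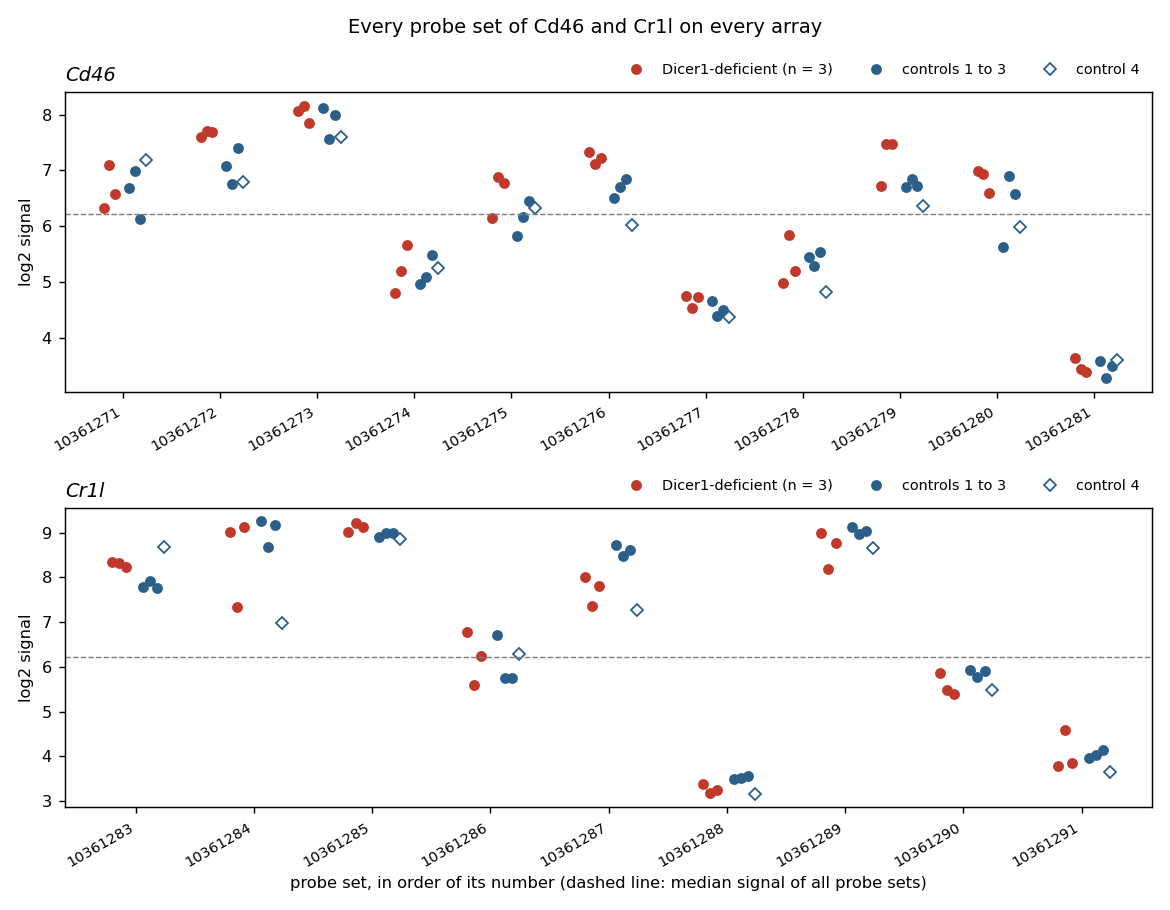
Log2 signal (vertical axes) of every probe set of Cd46 (top) and Cr1l (bottom) on the 3 Dicer1-deficient arrays (red), controls 1 to 3 (blue) and control 4 (open diamonds). The dashed line is the median of all probe sets, 6.22. At 10361272 and 10361276 of Cd46 all Dicer1-deficient arrays lie above all controls, and at 10361283 and 10361287 of Cr1l control 4 lies away from controls 1 to 3, on the far side of the Dicer1-deficient arrays.

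Cd55 encodes decay-accelerating factor, which is held in the membrane by a lipid anchor and splits convertases apart. Its brightest probe set, 10357497, read 9.37, 9.15 and 8.64 in Dicer1-deficient arrays, against 9.09, 9.14, 9.04 and 9.15 in controls. The controls lay close together, while Dicer1-deficient array 1 lay above all of them, array 2 level with the highest and array 3 below them. The means were 9.05 ± 0.37 (SD, n = 3) in Dicer1-deficient and 9.11 ± 0.05 (SD, n = 4) in control arrays, a log2 difference of -0.05 (95% interval -0.44 to 0.34; limma adjusted p = 0.964). Without Dicer1-deficient array 3 it was 0.16 (adjusted p = 0.796).

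That array was also the lowest of its group at the other bright parts of Cd55. Probe set 10357496 read 9.13, 9.01 and 8.62 in Dicer1-deficient arrays and 8.79, 8.89, 8.51 and 8.75 in controls. Probe set 10357498 read 8.19, 8.35 and 7.52 in Dicer1-deficient arrays and 8.64, 7.95, 7.77 and 8.07 in controls, and 10357495 read 8.38, 8.11 and 7.95 in Dicer1-deficient arrays and 8.65, 8.07, 8.11 and 7.54 in controls. The groups overlapped at each of these 3, with log2 fold changes of 0.18, -0.09 and 0.06. The other 7 probe sets had mean signals of 3.53 to 5.72, and log2 fold changes of -0.34 to 0.35. None of the 11 passed (lowest limma adjusted p over all probe sets = 0.591), and the mean of all 11 gave -0.02 (adjusted p = 0.984). The median of the 11 on each array gave a lower value, -0.38, which did not pass either (adjusted p = 0.332).

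Mice carry a second copy of this gene, Cd55b, whose product has a membrane-spanning end. Its brightest probe set read 5.87, 6.42 and 6.21 in Dicer1-deficient arrays and 6.55, 6.50, 6.22 and 7.30 in controls, a log2 difference of -0.48 (limma adjusted p = 0.477) and -0.26 without control 4. On the mean of its 6 probe sets the log2 fold change was 0.01. A probe set annotated to both copies, which was left out of the counts for Cd55, averaged 7.13 ± 0.34 (SD, n = 3) in Dicer1-deficient and 7.07 ± 0.50 (SD, n = 4) in control arrays. How far the other probe sets tell the copies apart was not tested.

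Cd46 encodes membrane cofactor protein, which helps a protease to inactivate complement fragments on the cell surface. In mice it is known mainly from the testis and sperm. Its brightest probe set, 10361273, read 8.07, 8.16 and 7.86 in Dicer1-deficient arrays and 8.12, 7.56, 7.99 and 7.60 in controls. The groups overlapped, and the log2 fold change was 0.22 (SE 0.17, 95% interval -0.17 to 0.60; limma adjusted p = 0.692). It was 0.14 without control 4 (adjusted p = 0.653).

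Of the 11 probe sets of Cd46, 9 had positive log2 fold changes, where 50.6% of all probe sets did. All 3 with an unadjusted p under 0.05 were among the 9, where 11.3% of all probe sets had such a p. These probe sets read 1 gene on the same 7 arrays, so their counts are not independent evidence. Probe set 10361276 read 7.33, 7.12 and 7.22 in Dicer1-deficient arrays, against 6.51, 6.71, 6.84 and 6.01 in controls. Probe set 10361272 read 7.60, 7.70 and 7.69 in Dicer1-deficient arrays, against 7.07, 6.75, 7.40 and 6.80 in controls. At both of these the groups did not overlap, and the log2 fold changes were 0.71 (SE 0.20; limma adjusted p over all probe sets = 0.226) and 0.66 (SE 0.18; adjusted p = 0.191). Without control 4 they were 0.54 (adjusted p = 0.0980) and 0.59 (adjusted p = 0.153). None of these passed the threshold.

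Probe set 10361279 of Cd46 read 6.72, 7.48 and 7.48 in Dicer1-deficient arrays and 6.71, 6.85, 6.72 and 6.36 in controls, with array 1 inside the control range and a log2 difference of 0.56 (adjusted p = 0.395). Probe set 10361280 had a log2 fold change of 0.57 with a control range of 5.62 to 6.91, and 10361275 had 0.40. The last of the 7 bright probe sets, 10361271, went the other way, with -0.08 (adjusted p = 0.961), and read 6.32, 7.10 and 6.58 in Dicer1-deficient arrays and 6.69, 6.98, 6.13 and 7.19 in controls. The 4 probe sets of Cd46 with mean signals below the median of all probe sets had log2 fold changes of -0.00085 to 0.19.

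Averaged over its 11 probe sets, Cd46 read 6.12, 6.40 and 6.29 in Dicer1-deficient arrays, against 5.93, 5.996, 6.10 and 5.85 in controls. The groups did not overlap on this mean, but the share of all genes without overlap on such a mean was not counted. The log2 fold change was 0.30 (95% interval 0.08 to 0.52), with an unadjusted limma p of 0.0123, and it did not pass after adjustment (adjusted p = 0.125), where 5.86% of all genes did and 16.9% had an unadjusted p under 0.05. On the mean of its 7 probe sets above the median signal, a summary chosen after the data were seen, it was 0.43 (adjusted p = 0.0566), where 7.66% of the genes tested passed. That summary without control 4 gave 0.39 and passed (adjusted p = 0.0412), in a fit where 20% of the genes tested passed, so the call for Cd46 rests on both choices.

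Cr2 encodes, in mice, both complement receptors for fragments of C3, made from 1 gene by splicing and known from B cells and follicular dendritic cells. Of its 30 probe sets 22 had mean signals under the 4.63 quartile and 1 lay above the 6.22 median. That one, 10361297, read 6.28, 6.68 and 6.50 in Dicer1-deficient arrays and 6.30, 6.33, 6.31 and 7.05 in controls. Controls 1 to 3 lay nearly level, and control 4 was the highest of all 7 arrays, as it was for 40.0% of all genes. The log2 fold change was -0.01 (95% interval -0.49 to 0.47; limma adjusted p = 0.990), and without control 4 it was 0.17 (95% interval -0.09 to 0.44; adjusted p = 0.404).

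Control 4 was high across Cr2. It was the highest of all 7 arrays at 17 of the 30 probe sets, where it was so for 27.0% of all probe sets. This was not particular to Cr2, since control 4 was also highest at 7 of 12 probe sets of C4bp. The counts were 2 of 5 for Cfd, 2 of 11 for Cd55, 1 of 11 for Cd46 and 1 of 9 for Cr1l. On the mean of the 30 probe sets it read 4.44, against 4.03 to 4.09 in controls 1 to 3, and the Dicer1-deficient arrays read 3.997 to 4.20. With all arrays 21 of the 30 log2 fold changes of Cr2 were negative, and without control 4 23 were positive. They ran from -0.35 to 0.38 with all arrays, and none passed (lowest adjusted p over all probe sets = 0.678). No detection calls were used, and a signal above background was not shown for any probe set of Cr2.

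Of 13 markers of B cells and follicular dendritic cells, 7 were measured, 0 passed, and their summed linear signal was 1079 to 1510 in Dicer1-deficient arrays and 1028 to 1451 in controls. Among controls the sum was highest in control 4, but over all arrays it was highest in Dicer1-deficient array 2. Of 14 macrophage and microglia markers 8 were measured, with a summed signal of 2906 to 3248 in Dicer1-deficient arrays and 2901 to 4192 in controls, again highest in control 4. The part of these cells in the Cr2 signal was not tested.

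C4bp encodes a chain of C4b-binding protein, a soluble inhibitor of the classical and lectin pathways that is made mainly in liver. All 12 of its probe sets had mean signals under the 6.22 median, and 11 of them lay under the 4.63 quartile. The brightest, 10357521, read 4.74, 5.01 and 4.84 in Dicer1-deficient arrays and 4.70, 4.69, 4.87 and 5.27 in controls, with control 4 highest. The log2 fold change was -0.02 (95% interval -0.39 to 0.36; limma adjusted p = 0.983). Leaving out control 4 gave 0.11 (adjusted p = 0.563).

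Across the 12 probe sets of C4bp 6 log2 fold changes were positive and 6 negative, from -0.36 to 0.28. At 10357518 the groups did not overlap, with 3.60, 3.50 and 3.67 in Dicer1-deficient arrays and 3.87, 3.79, 3.80 and 3.99 in controls, but at signals this low and with a limma adjusted p of 0.437 over all probe sets it was not a call. Of 8 liver markers 6 were measured and 0 passed, with a summed linear signal of 3205 to 3641 in Dicer1-deficient arrays and 3140 to 4598 in controls, the highest being control 4. Most of that sum came from Apob, which averaged 11.49 in Dicer1-deficient and 11.55 in control arrays. The next brightest of these markers, Serpina3k, averaged 8.63 and 8.30. Without control 4, 1 of these markers, Serpina3k, passed (log2 difference 0.59, limma adjusted p = 0.0323), in a fit where 5.18% of all genes did. A C4bp signal above background was not shown, and the part of liver-type RNA in it was not tested.

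Cfd, which encodes factor D and is known as adipsin from its high expression in fat, read 5.50, 5.82 and 5.27 at its brightest probe set, 10364544, in Dicer1-deficient arrays. The controls read 5.40, 5.22, 5.45 and 5.599, and the groups overlapped. The log2 fold change was 0.12 (95% interval -0.24 to 0.47; limma adjusted p = 0.862). Leaving out control 4 gave 0.18 (adjusted p = 0.535). All 5 probe sets of Cfd lay below the median of all probe sets, with log2 fold changes of -0.22 to 0.20, and on their mean Cfd had a log2 fold change of -0.0029. Of 13 adipocyte markers 4 were measured and 0 passed, with a summed linear signal of 4701 to 5072 in Dicer1-deficient arrays and 3931 to 4416 in controls, and the part of fat cells in the Cfd signal was not tested. The 4 went different ways. Acly, the brightest and a gene of lipid synthesis in many cells, averaged 11.73 in Dicer1-deficient and 11.40 in control arrays without overlap (log2 difference 0.34, limma adjusted p = 0.137), and the log2 differences were 0.05 for G0s2, 0.03 for Fasn and -0.25 for Slc36a2. Adipoq, Fabp4 and Plin1 were not analysed here.

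A list of 57 genes was taken here as other complement genes. It does not hold every such gene, and it includes F13b, a coagulation factor gene. Of the 57, 10 were measured and 0 passed limma adjusted over all genes, while 2 had an unadjusted p under 0.05, where 14.5% of all genes did. The log2 fold changes of the 10 ran from -0.48 to 0.52 with a median of 0.05, and F13b had 0.05. Susd4, which encodes a sushi-domain membrane protein that inhibits complement, came closest to the threshold among these 10. It read 7.11, 6.95 and 7.07 in Dicer1-deficient arrays and 6.73, 6.69, 6.40 and 6.27 in controls, without overlap, a log2 difference of 0.52 (SE 0.14; limma adjusted p = 0.123). It was 0.43 without control 4 (adjusted p = 0.0739). With array weights estimated by limma, Susd4 passed (0.49, adjusted p = 0.0336), where 7.67% of all genes did. Photoreceptor markers, of which 6 of 11 were measured and 0 passed, summed to 481 to 855 in Dicer1-deficient arrays and 345 to 570 in controls, and their part in the Susd4 value was not tested.

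C1qbp, which encodes a mainly mitochondrial protein that also binds C1q, read 9.85, 9.78 and 9.78 in Dicer1-deficient arrays and 9.58, 9.59, 9.52 and 9.24 in controls. The groups did not overlap, and the log2 fold change was 0.32 (adjusted p = 0.246). The 7 probe sets of C1qbp differed. Without control 4, 10388011 passed (0.67, limma adjusted p over all probe sets = 0.0345), where 1.86% of all probe sets did. With all arrays it had 0.36 (adjusted p = 0.770). Probe sets 10388014 and 10388012 had -0.26 and -0.24 without control 4, and the others were positive. With each gene's probe sets averaged and control 4 left out, where 17% of all genes passed, both Susd4 (0.29, adjusted p = 0.0309) and C1qbp (0.20, adjusted p = 0.0432) did. Vtn, the gene of vitronectin, which blocks the terminal complex, had a log2 difference of 0.48 (adjusted p = 0.519) with Dicer1-deficient arrays from 6.28 to 7.55. The neuronal sushi-domain gene Sez6 (-0.24) and Colec11 (-0.17), a lectin pathway initiator gene, did not pass either. Itgb2, a subunit gene of the leukocyte receptors for complement, had a log2 fold change of 0.04 at its brightest probe set. Its 17 probe sets ran from -0.26 to 0.60. The highest, 10364275, was without overlap, as were 13.3% of all probe sets, and did not pass (limma adjusted p over all probe sets = 0.101). On the mean of its probe sets Itgb2 had 0.16 (adjusted p = 0.591), and 0.25 without control 4 (adjusted p = 0.0546). The pentraxin genes Crp and Apcs had 0.08 and -0.24. Cfhr3, a gene of sushi-domain plasma proteins that was not on the list and is named after its values were seen, averaged 6.84 ± 0.36 (SD, n = 3) in Dicer1-deficient and 7.26 ± 0.58 (SD, n = 4) in control arrays. Its log2 difference was -0.43 (limma adjusted p = 0.673). Leaving out control 4 gave -0.71 (adjusted p = 0.0859). Gm4788, a factor H-related gene also off the list and named by its values, averaged 10.48 ± 0.23 (SD, n = 3) in Dicer1-deficient arrays. In control arrays it averaged 10.98 ± 0.09 (SD, n = 4). The log2 difference of Gm4788 was -0.50 (limma adjusted p = 0.107), with a lower adjusted p than that of Susd4. It was -0.47 without control 4 (adjusted p = 0.0848) and passed in neither fit.

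**Figure D4:**
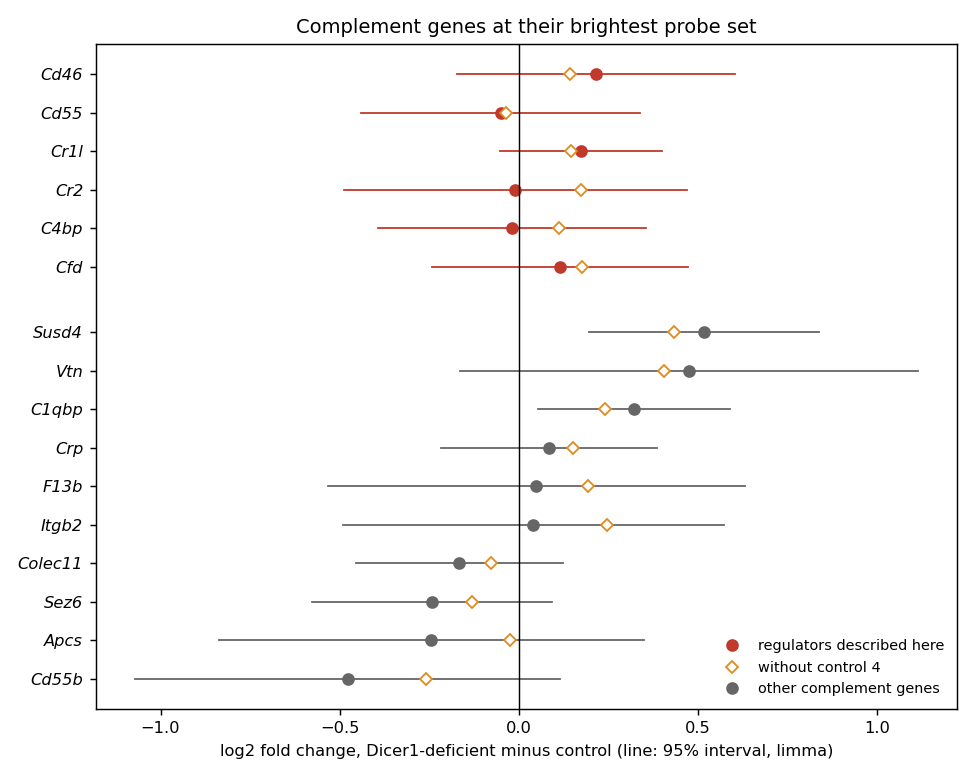
Log2 fold change (horizontal axis, Dicer1-deficient minus control) at the brightest probe set of the 6 regulator genes (red) and of the 10 measured genes of the other complement list, F13b included (grey), with the 95% interval of the limma fit as a line and the value without control 4 as an orange diamond. The intervals of all 6 regulators include 0, and those of Susd4 and C1qbp do not, before adjustment.

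The gene whose pattern was most like that of Cr1l, the member with the largest moderated t, was sought over the 7 arrays after centring each of the 5017 genes on its mean. The smallest root mean square differences were those of Llgl1 (0.0370 log2 units), a cell polarity gene, Numb (0.0408), a gene of asymmetric division, and Ccnk (0.0411), a cyclin gene. None of the 3 passed, with log2 fold changes of 0.19, 0.19 and 0.21.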

How the data were processed

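Log2 signals of 7 arrays were deposited by the authors in 1 table. Whether its 65535 rows are all the probe sets of the platform was not tested. The members, the other measured complement genes and Dicer1 all lie on chromosome 1, 10, 11 or 12. The table may therefore hold only part of the genome, and shares of all genes may not be genome-wide. All genes and all probe sets here mean those of this table, and a gene counted as not measured may be missing only from it. The submitters' processing notes name RMA (background correction, quantile normalization, probe summary) and Partek 6.6, and do not give the role of either. The sources used here name no genome build, probe alignment or filter. Normalization removes differences in total RNA, and the small number of arrays limits precision. Of 65535 probe sets 53644 had 1 gene symbol, 877 several, and 11014 are unnamed here. Symbols were updated through the RefSeq gene table (GRCm38.p6), used for names, chromosomes and gene order only.

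Groups came from the labels, and replicate numbers only name arrays. Each gene was represented by its probe set with the highest mean, with no filter. Groups were compared with limma 3.58.1 in R 4.3.3 (lmFit and eBayes with two-sided p-values, adjusted by Benjamini-Hochberg across genes or across probe sets, threshold 0.05), and probe sets within genes with diffSplice. In the figures and text, errors are SDs over arrays and intervals are limma's 95% intervals. The members and lists were chosen with earlier results of these data known. The genes named were the 6 members, Dicer1, the 6 other complement genes with the smallest p (and further ones by value), genes between the chromosome 1 members that passed, and the 3 genes most like the member with the largest moderated t. Alternatives were other probe-set summaries, normalizations, filters, moderation, array weights, thresholds and leaving out arrays. The code was tested on simulated data. There the diffSplice test made too many false calls when the probe sets of a gene differed in SD. Figures were drawn with matplotlib 3.10.9 in Python 3.11.15.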

Additional observations from a re-analysis of the deposited data

Results flagged for a closer look

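The 78 probe sets of the 6 regulators, the means of their probe sets and the brightest probe sets of the 10 other complement genes were checked for a control array far from the other 3 controls, by Dixon's gap to the nearest control as a share of the control range, at its 95% critical value. Chance alone gives about 1 in 20 such values. Of 94 values checked 11 had such a gap (11.7%), and in all 11 the array was control 4. Over all genes the share was 11.2% (9.71% with control 4 as the array), and over all probe sets 9.56% (7.65% with control 4). The share here is thus near that of the whole table.

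Cr2 was set apart at its brightest probe set, where control 4 read 7.05 and the nearest control 6.33, and on the mean of its probe sets, where it read 4.44 and the nearest control 4.09. Control 4 was also high at 5 further probe sets of Cr2, with 4.66 at 10361294, 5.20 at 10361296, 3.47 at 10361305, 4.25 at 10361316 and 3.78 at 10361317. At C4bp it was high at 10357519 (4.81) and 10357528 (4.37).

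At Cr1l control 4 was low, with 7.27 at 10361287, where the nearest control read 8.49, and 3.17 at 10361288, where the nearest read 3.49.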

How the results depend on the processing

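No member passed in any alternative but 1. That was Cd46 on the mean of its probe sets above the median signal without control 4, at 0.39 (limma adjusted p = 0.0412), which made the count of members past the threshold 1; this summary, with and without control 4, was chosen after seeing the data. The log2 fold change of Cd46 stayed positive in all 19 alternatives, from 0.13 to 0.43. The other threshold, the moderation settings and the signal filter cannot change a fold change, and all alternatives reuse the same arrays. The count of 19 is therefore no measure of independent agreement. Member probe sets and within-gene tests gave 0 calls wherever they were run.

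The other members changed sign. On the mean of all probe sets the values were -0.063 for Cr1l and -0.0029 for Cfd, and without control 4 they were -0.17 for Cr1l, 0.057 for Cr2 and 0.093 for C4bp. On the mean of bright probe sets they were 0.026 for Cd55 and -0.086 for Cr1l, and without control 4 -0.24 for Cr1l and 0.17 for Cr2. The median of probe sets gave -0.025 for Cfd, and array weights gave 0.13 for Cr2 and 0.065 for C4bp. Leaving out 1 array in turn gave -0.21 to 0.16 for Cd55, -0.11 to 0.17 for Cr2, -0.090 to 0.11 for C4bp, -0.031 to 0.25 for Cfd and -0.17 to 0.034 for Dicer1. The cause was not tested.

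Dicer1 turned positive on the median (0.29) and the bright mean (0.018) of its probe sets. Cd55b gave 0.0077 on the mean, 0.17 on the median and 0.10 on the mean without control 4, and Sez6 gave 0.065 on the median and 0.073 on the mean without control 4. Of the other complement genes 1 passed with array weights, 2 on the mean without control 4 and 1 on the bright mean without control 4, against 0 otherwise.

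Of all genes 117 passed. The count was 294 on the mean and 176 on the median of probe sets, 385 with array weights, 213 at a threshold of 0.1, 853 on the mean without control 4, 265 on the bright mean, 693 on that without control 4, and 33 to 260 without 1 array, the highest being without control 4. Of all probe sets 561 passed, 1663 with array weights, 1037 at a threshold of 0.1 and 138 to 1216 without 1 array.

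No paired analysis was possible because the replicate numbers were given in accession order and pair no arrays. Signals of Cr2, C4bp and Cfd mostly lay below the median of the arrays, and no detection calls were used.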

Other observations

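On chromosome 1 the members lie in separate groups in the gene order of the RefSeq table. Cd55 follows Cd55b, with Zp3r between it and C4bp, and Cd46, Cr1l and Cr2 follow each other directly and close the measured part of the chromosome. Between the outermost members lay 500 other measured genes, of which 8 rose and 3 fell (limma adjusted over all genes), 2.33% of all genes passing. Those that rose were Niban1 (log2 fold change 0.98), Pacc1 (0.75), Zbtb18 (0.78), Pld5 (1.82), Colgalt2 (1.20), Pigm (0.81), Cdc73 (0.70) and Atp1b1 (0.62).

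Mael (-1.10), Fcgr2b (-0.80) and Chil1 (-1.89) fell in Dicer1-deficient RPE. Fcgr2b, which encodes the inhibitory receptor for the constant part of immunoglobulin G, had a mean of 7.28 ± 0.08 (SD, n = 3) in Dicer1-deficient and 8.08 ± 0.17 (SD, n = 4) in control arrays (limma adjusted p = 0.0164). It was not on the complement list. None of the 5 measured genes before Cd55 passed, the closest to it being Cd55b, Thsd7b and Cxcr4.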
